A study of Mus musculus and Rattus norvegicus with 28 samples.

Results

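Mitochondrial ribosomal protein genes encode the proteins of the ribosome inside mitochondria. They were taken as the genes whose symbol begins with Mrpl or Mrps followed by a digit, without pseudogenes, in the transcript tables of mouse and rat cardiomyocytes. In mouse, 82 symbols matched, 4 were pseudogenes, and the other 78 all passed the filter of at least 1 FPKM in 2 libraries, so that they made up 78 of 13979 genes tested. In rat, 76 genes matched and 74 of them were among 14045 genes tested. The 2 that did not pass were copies of Mrps21l listed at 0. FPKM is the number of sequenced fragments per kilobase of transcript, scaled to the mapped fragments of the library, here summed over the transcripts of a gene, so levels can be compared between genes.

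The mouse libraries came from wild-type C57BL/6 cardiomyocytes of the left ventricle, prepared by enzymatic digestion from animals of both sexes at embryonic day 18.5 (E18.5) and postnatal days 1, 3 and 7 (P1, P3 and P7). Each time point had 2 RNA-seq and 2 ATAC-seq libraries. ATAC-seq marks open chromatin by where a transposase can insert into DNA. The rat libraries came from cultured ventricular cardiomyocytes of Sprague Dawley pups at P1, with 3 libraries treated with DMSO and 3 with 100 nM trichostatin A (TSA), an inhibitor of histone deacetylases. By the methods of the study, rat cells of that experiment were treated from the day after plating and also received an siRNA, a negative control or one against Mef2a, and the labels of these 6 libraries name no siRNA. The series holds 28 samples, and its HiChIP libraries are not analysed here. The study describes its replicates as biological, and the labels do not tie the RNA-seq libraries to separate animals or cultures, so p-values measure the spread between these libraries. By the methods of the study, non-cardiomyocytes were removed by letting them attach to dishes, and the mouse cells were judged pure by staining for cardiac troponin T. In bulk RNA fewer cells of a type and less RNA per cell cannot be told apart.

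Mitochondrial ribosomes translate the few mRNAs that are made from mitochondrial DNA, all of which encode subunits of the respiratory chain or of the ATP synthase. The RNA of the mitochondrial ribosome is also made in the organelle, but every one of its proteins is encoded in the nucleus, made in the cytosol and imported. Some of these proteins have counterparts in bacterial ribosomes and others were added in the mitochondrial lineage. Cardiomyocytes fill with mitochondria around birth as the heart turns from glycolysis to fatty acid oxidation, and inherited defects of several mitochondrial ribosomal proteins cause cardiomyopathy.

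Depth, estimated from the coverage in the transcript tables, lay between 29.3 and 37.5 M aligned reads per mouse library and between 28.2 and 38.5 M per rat library. The summed level of 10 cardiomyocyte markers fell over the mouse time course, from 16030 and 20380 FPKM at E18.5 through 9236 and 14600 at P1 and 6368 and 5150 at P3 to 1721 and 810 at P7. The same 10 genes were all at 1 FPKM or more up to P3, and 9 and 8 of them were in the P7 libraries. Markers of fibroblasts (8 genes) rose from 442 and 433 FPKM at E18.5 to 2907 and 3628 at P7, markers of smooth muscle and pericytes (5 genes) from 382 and 510 to 1645 and 1854, and markers of macrophages (5 genes) from 32.2 and 31.7 to 126 and 105. Endothelial markers (5 genes) were between 160 and 316 FPKM. Erythroid markers (6 genes) reached 29040 and 35390 FPKM at E18.5 and were between 4.71 and 41.0 FPKM afterwards. The part of these shifts in the values below was not tested.

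Promoters of 4 members are shown because the results turn on these genes: Mrpl42 had the highest level and the largest fall after birth, Mrpl17 the largest rise, Mrps10 the largest difference with TSA in rat, and Mrpl3 one of the 2 lowest counts of promoter peaks. Mrpl17 was added to the set after its values were seen. Mrpl42 is a protein of the large subunit with no bacterial counterpart, Mrpl17 and Mrpl3 are large-subunit proteins with bacterial homologs, and Mrps10 is a small-subunit protein with one. The sequences are the mouse RefSeq windows of build GRCm38.p6, from 250 bases before to 50 bases after the annotated start, in the direction of transcription. Capitals mark exact matches, on either strand, to a short form of the motif of NRF1 (CGCATGCG), of ETS factors (CCGGAAG) or of YY1 (AAGATGGC), nuclear factors known to act at genes for mitochondrial proteins. The first window lies at chr10:95501900-95502199 on the minus strand, the second at chr7:105811038-105811337 on the minus strand, the third at chr17:47368947-47369246 on the plus strand and the fourth at chr9:105053018-105053317 on the plus strand.
Mrpl42: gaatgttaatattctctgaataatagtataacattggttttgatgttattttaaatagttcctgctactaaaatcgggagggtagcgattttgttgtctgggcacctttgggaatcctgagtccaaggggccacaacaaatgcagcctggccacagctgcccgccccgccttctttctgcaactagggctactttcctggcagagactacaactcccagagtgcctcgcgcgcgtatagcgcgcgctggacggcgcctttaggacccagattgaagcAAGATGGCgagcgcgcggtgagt
Mrpl17: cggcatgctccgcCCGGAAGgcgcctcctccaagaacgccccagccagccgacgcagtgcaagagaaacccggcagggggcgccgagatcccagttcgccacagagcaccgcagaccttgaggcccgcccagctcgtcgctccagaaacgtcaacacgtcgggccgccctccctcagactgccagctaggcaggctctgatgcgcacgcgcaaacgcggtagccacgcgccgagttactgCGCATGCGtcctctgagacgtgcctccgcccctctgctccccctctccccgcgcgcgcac
Mrps10: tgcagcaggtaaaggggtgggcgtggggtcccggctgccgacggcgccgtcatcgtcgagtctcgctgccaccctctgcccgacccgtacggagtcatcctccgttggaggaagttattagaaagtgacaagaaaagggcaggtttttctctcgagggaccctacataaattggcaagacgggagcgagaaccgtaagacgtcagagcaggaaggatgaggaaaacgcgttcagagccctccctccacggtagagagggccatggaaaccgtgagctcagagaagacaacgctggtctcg
Mrpl3: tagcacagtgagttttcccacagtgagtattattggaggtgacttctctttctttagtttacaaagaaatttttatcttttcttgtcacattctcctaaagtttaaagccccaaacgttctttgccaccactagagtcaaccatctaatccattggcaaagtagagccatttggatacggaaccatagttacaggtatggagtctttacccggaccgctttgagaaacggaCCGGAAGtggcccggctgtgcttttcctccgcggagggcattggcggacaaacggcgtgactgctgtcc
The match in Mrpl42 is to the YY1 letters, at bases 28 to 35 after the start. The first match in Mrpl17 is to the ETS letters at bases -237 to -231 and the next to the NRF1 letters at bases -10 to -3, just before the start. The match in Mrpl3 is to the ETS letters at bases -19 to -13. The Mrps10 window holds none of the 3, and no match says only that these letters are not in this window.

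Members were abundant transcripts in every library. The median member stood at 31.5 and 37.4 FPKM at E18.5, then 33.6 and 34.4 (P1), 32.6 and 29.3 (P3) and 28.4 and 26.0 (P7). In each mouse library the median member was above 78.9 to 86.9% of the genes tested, and the 2 P7 libraries held the 2 lowest of these shares. The summed level of the 78 members was 3133 and 3646 FPKM at E18.5, then 2980 and 2982 (P1), 2924 and 2679 (P3) and 2521 and 2334 (P7). The P7 sums were the 2 lowest of the 8 and the E18.5 sums the 2 highest. As a share of all transcripts (TPM) the members took 0.590 and 0.661% at E18.5 and 0.552 and 0.525% at P7, with P1 at 0.643 and 0.657%. On that scale the first E18.5 library was below both P1 libraries, while the P7 libraries were again the lowest.

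Levels differed between members although the mature ribosome holds most of them once. Mrpl42 had the highest mean over the 8 libraries, 178 FPKM, followed by Mrpl12 at 102.7 and Mrpl30 at 102. Mrpl12 forms the stalk of the large subunit that recruits translation factors and is also known to bind the mitochondrial RNA polymerase, and Mrpl30 is a large-subunit protein with a bacterial homolog. The lowest means were those of Mrpl19 at 8.27, Mrpl47 at 8.75 and Mrpl53 at 8.82 FPKM, all of the large subunit. The level of Mrpl53 needs its transcripts to be read: 90.9% of it lay in a retained-intron transcript and 9.15% in its protein-coding one. For 71 of the 78 members the leading transcript was protein coding, and for 55 more than 90% of the level lay in protein-coding transcripts. Besides Mrpl53, 5 members had less than 50% in protein-coding transcripts: Mrps34 with 9.67%, Mrpl3 with 13.3%, Mrps26 with 22.8%, Mrpl38 with 37.4% and Mrps16 with 37.7%. The library kit did not mark strand, and exons of 28 members overlap a gene on the opposite strand. Reads within the shared bases cannot be told apart. The largest exon overlap of a member ran from 2 bases (Mrpl58) to 3533 (Mrps25).

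**Figure D1:**
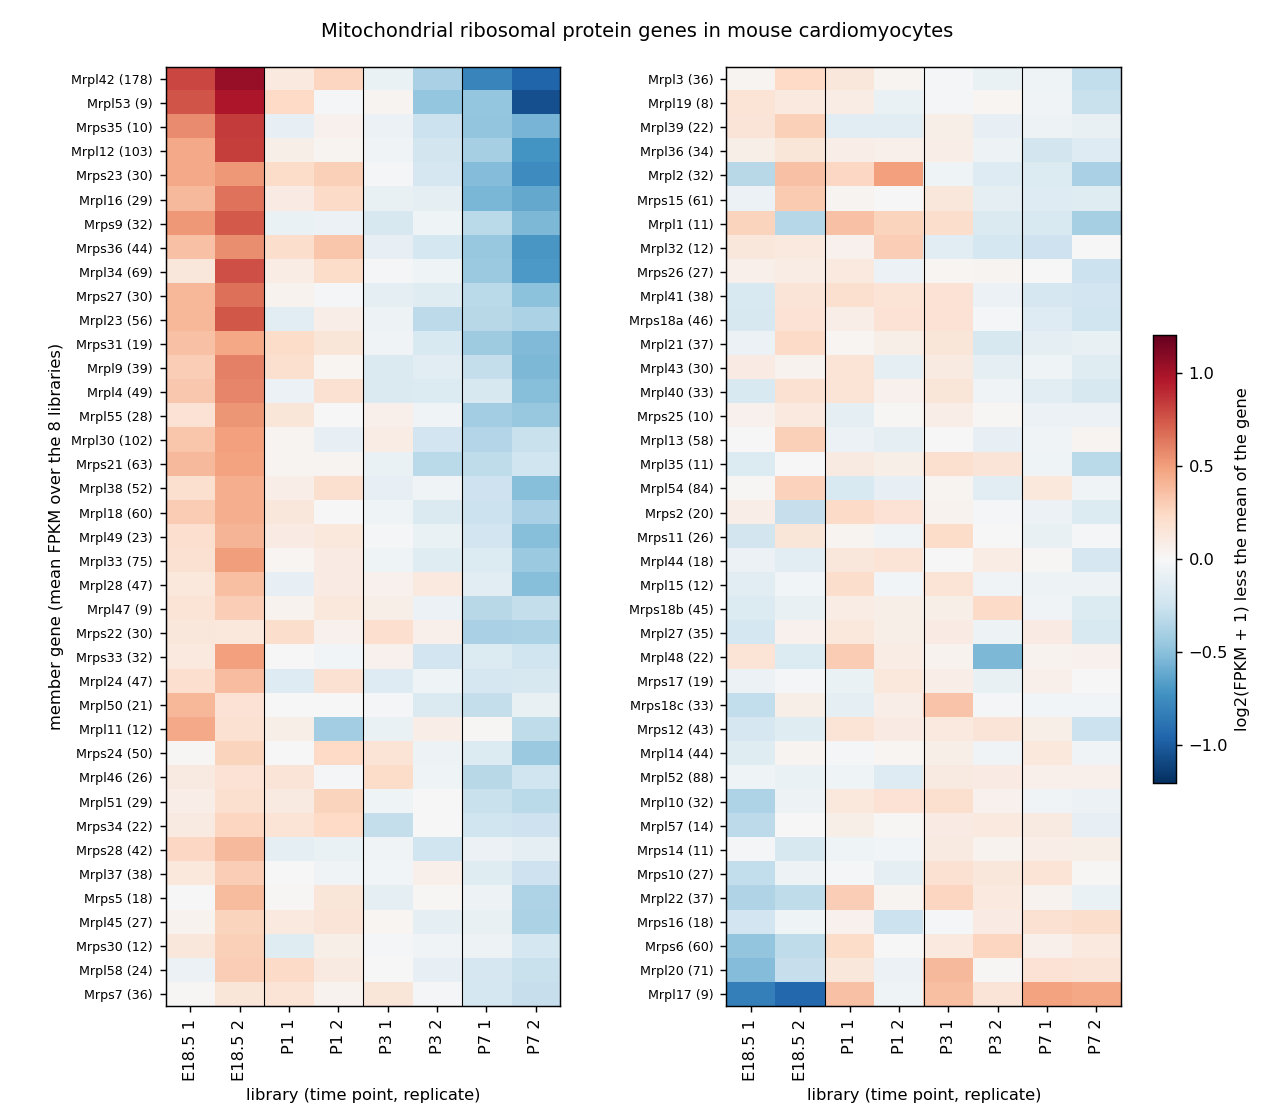
Each row is one of the 78 mouse members, with its mean FPKM in parentheses, each column 1 of the 8 RNA-seq libraries, and the colour is log2(FPKM + 1) less the mean of that gene over the libraries. Members are ordered by their log2 fold change from E18.5 to P7, from Mrpl42 (-1.80) at the top left to Mrpl17 (1.35) at the bottom right. Rows of the left panel run from red at E18.5 to blue at P7, and the last rows of the right panel run the other way.

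The comparison of P7 with E18.5 asks how transcripts of the cardiomyocyte preparations differed between the late fetal heart and the end of the first week. The markers of cell types given above also differed between them. In FPKM as deposited, most members were lower at P7. A member was called when its adjusted p in limma was under 0.05 and its fold change was above 2-fold, a log2 change above 1, in a fit of all 8 mouse libraries on log2(FPKM + 1). Of 78 members, 9 were called lower (11.5%, against 12.3% of all genes tested) and 1 was called higher (1.28%, against 15.4%). Without the limit on fold, 33 members were lower (42.3%, against 22.6% of all genes) and 3 were higher (3.85%, against 32.6%). The log2 fold change was below 0 for 59 members (75.6%, against 42.9%). The median member changed by -0.32 and the median of all tested genes by 0.15 on the log2 scale. Both P7 libraries were below both E18.5 libraries for 50 members (64.1%, against 32.7%) and above them for 9 (11.5%, against 45.6%). The share of members past the 2-fold limit on the lower side was thus near that of all genes, while members with smaller falls made a larger share and members that rose a smaller one.

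The scaling of the libraries moved these counts. The median of all genes shifted to 0.35 when values were rescaled to TPM, which sums to the same total in each library, and to 0.04 with median-of-ratios size factors, so changes are best read against that median. The median of members less that of all genes was -0.46 with FPKM as deposited, -0.42 with TPM and -0.48 with size factors. The median member itself changed by -0.32 with FPKM, by only -0.07 with TPM and by -0.43 with size factors. On the TPM scale the difference thus lay mainly in the rise of the median of all genes. With TPM, 3 members were called lower (3.85%, against 11.4% of all genes on that scale), and by adjusted p alone 21 were lower (26.9%, against 16.9%) and 11 higher (14.1%, against 39.2%). With size factors 12 were called lower (15.4%, against 13.9%), and by adjusted p alone 43 were lower (55.1%, against 26.0%) and 1 higher (1.28%, against 28.3%). The count called lower also moved when single libraries were left out, which leaves 1 library at a time point. The median of members less that of all genes was then -0.40 without the second E18.5 library and -0.61 without the first. Without the second P7 library it was -0.43.

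Among proteins of the large subunit with no bacterial counterpart, Mrpl42 (ENSMUSG00000062981.5, chr10:95480805-95501940, minus strand) was at 281 and 332 FPKM at E18.5, then 174 and 191 (P1), 152 and 122 (P3) and 92.2 and 81.8 (P7). Its libraries did not overlap between any 2 time points. The log2 fold change from E18.5 to P7 was -1.80 ± 0.15 (SE, n = 2 per time point, adjusted p = 4.56e-05 in limma). One protein-coding transcript held 96.9% of its level, so the fall was that of a single annotated isoform. Mrpl53 fell from 14.1 and 16.6 FPKM at E18.5 to 5.48 and 3.31 at P7 (log2 fold change -1.62 ± 0.25, adjusted p = 0.000846). This was almost all the retained-intron transcript noted above, and 418 bases of an exon of Mrpl53 are shared with Gm42688 on the same strand.

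Of large-subunit proteins with a bacterial homolog, Mrpl12 was at 134 and 174 FPKM at E18.5, then 102.5 and 99.9 (P1), 94.8 and 83.5 (P3) and 74.0 and 59.0 (P7). All its later libraries were below both E18.5 libraries, and the log2 fold change at P7 was -1.20 ± 0.17 (adjusted p = 0.000528). Mrpl16, which sits near the site where tRNAs are bound, went from 37.0 and 44.6 FPKM at E18.5 through 30.0 and 33.0 (P1) and 26.2 and 25.8 (P3) to 18.8 and 17.9 at P7 (-1.10 ± 0.13, adjusted p = 0.000256). Mrpl34 went from 72.6 and 113 FPKM at E18.5 to 48.2 and 40.4 at P7 (-1.02 ± 0.20, adjusted p = 0.00314). Its 2 E18.5 libraries differed more than those of the other called members, but both stood above the P7 pair. With TPM, the log2 fold changes of Mrpl12 (-0.94), Mrpl16 (-0.87) and Mrpl34 (-0.77) stayed below 0 with adjusted p under 0.05 and did not pass the 2-fold limit.

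In the small subunit, the called members were Mrps35 and Mrps23, which have no bacterial counterpart, and Mrps9, which has one. Mrps35 was at 14.1 and 17.2 FPKM at E18.5 and at 6.33 and 5.94 at P7 (-1.22 ± 0.16, adjusted p = 0.00037). Mrps23 was at 39.7 and 41.7 FPKM at E18.5, then 33.7 and 35.2 (P1), 28.5 and 24.9 (P3) and 19.8 and 16.6 (P7) (-1.12 ± 0.14, adjusted p = 0.00025). Most of the fall of Mrps23 lay after P1, whereas that of Mrps9 lay before it. Mrps9 was at 44.0 and 51.1 FPKM at E18.5, then 28.6 and 28.8 (P1), 26.3 and 29.3 (P3) and 24.0 and 20.6 (P7) (-1.06 ± 0.14, adjusted p = 0.000372). Mrps36 carries the name of a ribosomal protein but is now known as a subunit of the mitochondrial 2-oxoglutarate dehydrogenase, an enzyme of the citric acid cycle. It fell from 54.5 and 63.0 FPKM at E18.5 to 30.8 and 25.8 at P7 (-1.03 ± 0.14, adjusted p = 0.000458). With TPM, Mrps23 (-0.89), Mrps9 (-0.81) and Mrps36 (-0.78) fell short of the 2-fold limit, and Mrps35 did not.

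The single member called higher was Mrpl17, a large-subunit protein near the exit of the peptide tunnel. It was at 4.42 and 3.99 FPKM at E18.5, then 11.3 and 8.21 (P1), 11.3 and 9.66 (P3) and 12.4 and 12.2 (P7) (1.35 ± 0.18, adjusted p = 0.000375). All 6 postnatal libraries were above both E18.5 libraries, and it was called higher at P7 in every alternative that was run. Its leading transcript, with 81.6% of the level, is annotated with 7300 bases, against 1028 bases for another of its protein-coding transcripts. The next largest rises were those of Mrpl20 (48.1 and 57.2 FPKM at E18.5, 78.4 and 77.7 at P7), a large-subunit protein, and Mrps6 (42.4 and 47.7, then 61.9 and 64.4), a small-subunit protein. Their log2 fold changes of 0.56 (adjusted p = 0.018) and 0.48 (adjusted p = 0.0138) were past the threshold on p but under the 2-fold limit. Exons of Mrps6 overlap Slc5a3 on the same strand, so reads of the 2 genes may be mixed. Mrps16 at 0.34 (adjusted p = 0.0833) and Mrpl22 at 0.32 (adjusted p = 0.0818) did not pass the test.

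**Figure D2:**
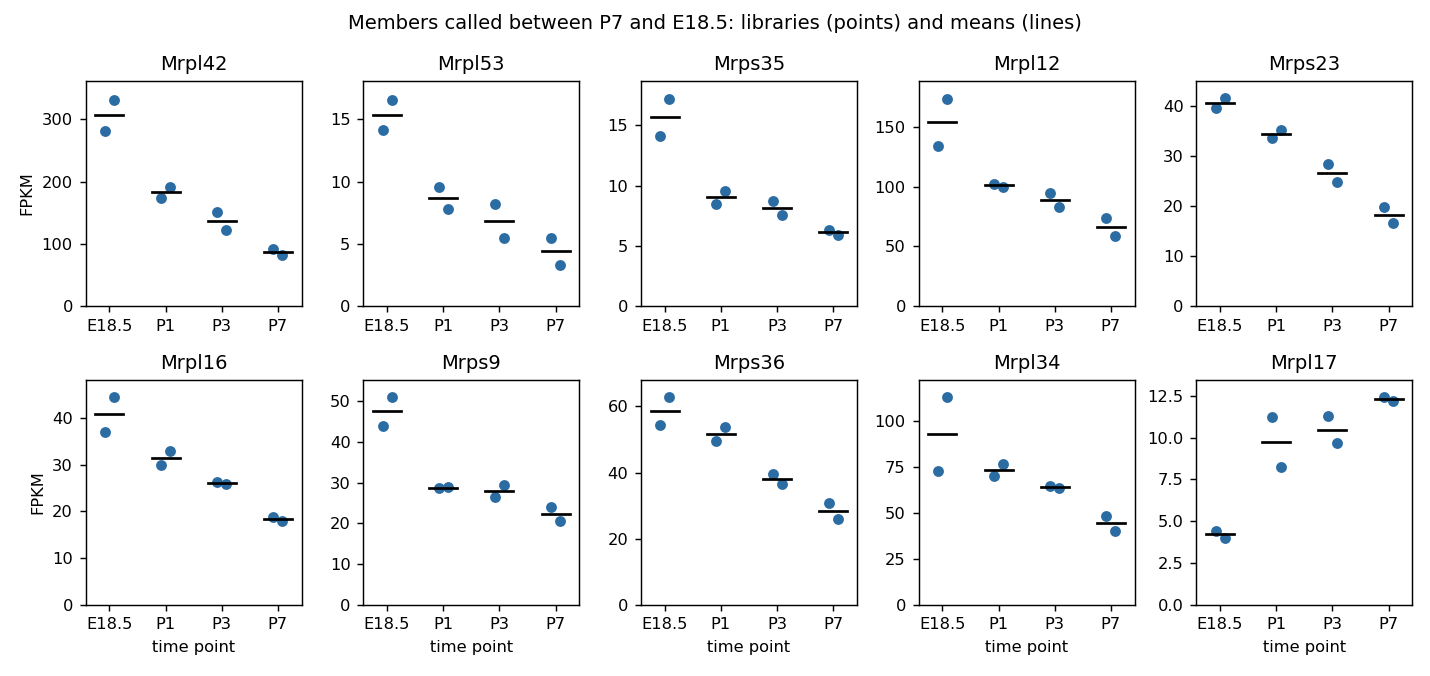
FPKM (vertical axis, from 0) of the 10 members called between P7 and E18.5 at the 4 time points (horizontal axis). Points are the 2 libraries of a time point and lines their means. In 9 panels the points descend from E18.5 to P7, and in the Mrpl17 panel they rise from about 4 FPKM at E18.5 to 12.4 and 12.2 at P7.

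Fewer members differed from E18.5 at P1 and P3. Against E18.5, 0 members were called lower at P1 (6.06% of all genes) and 1 higher, Mrpl17 (10.1%). At P1, 15 members were lower at an unadjusted p under 0.05 in limma (19.2%, against 17.7% of all genes). By adjusted p alone, 10 were lower (12.8%, against 14.4%) and 3 higher (3.85%, against 26.9%), with a median of -0.05 against 0.15 over all genes. The 10 included Mrpl53 (-0.75), Mrpl42 (-0.74), Mrps35 (-0.73) and Mrps9 (-0.70). These counts moved when single libraries were left out, and Mrpl17 was not called at P1 without the second E18.5 or the first P1 library. The median of members less that of all genes at P1 was -0.16 without the second E18.5 library and -0.35 without the first. At P3, 52 members had a log2 fold change below 0 (66.7%, against 40.9%), and 2 were called lower (2.56%, against 8.88%), Mrpl42 (-1.16) and Mrpl53 (-1.08), and 1 higher, Mrpl17 (1.14; 1.28%, against 13.0%). By adjusted p alone, 18 were lower at P3 (23.1%, against 17.9%) and 4 higher (5.13%, against 31.0%), with a median of -0.16 against 0.16. The 18 fell without the second P3 library, where the median of members less that of all genes was -0.27. With TPM the split by adjusted p turned, to 3 lower (3.85%, against 10.2% of all genes) and 13 higher (16.7%, against 35.1%) at P1 and to 10 lower (12.8%, against 12.9%) and 15 higher (19.2%, against 37.9%) at P3, while the median member stayed below that of all genes, at 0.18 against 0.33 and at 0.08 against 0.36. These comparisons share the E18.5 libraries, which held the erythroid transcripts given above, and so they are not independent of each other.

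Fold changes among postnatal time points do not use the E18.5 libraries. The filter and the estimate of spread behind the p-values do, since all 8 libraries were fitted together. In a fit of the P1 and P7 libraries alone, 11 members were lower by adjusted p from P1 to P7, where the main fit gave 12. From P1 to P7, 1 member was called lower, Mrpl42 (-1.06, adjusted p = 0.00265; 1.28%, against 5.46% of all genes), and 0 higher (3.45% of all genes). At an unadjusted p under 0.05 in limma, 0 members were higher and 31 lower (39.7%, against 16.1%). Adjusted p alone gave 0 higher (8.2% of all genes) and 12 lower (15.4%, against 10%): Mrpl42, Mrps23 (-0.89), Mrpl53 (-0.87), Mrps36 (-0.85), Mrpl16 (-0.75), Mrpl34 (-0.72), Mrps31 (-0.66), Mrpl12 (-0.61), Mrpl38 (-0.52), Mrps22 (-0.51), Mrpl55 (-0.51) and Mrpl51 (-0.48). The log2 fold change was below 0 for 65 members (83.3%, against 50.3%), the median member changed by -0.27 and the median gene by -0.004. Both P7 libraries were below both P1 libraries for 54 members (69.2%, against 31.8%). Rescaling moved the medians little, to -0.25 against 0.01 in TPM and -0.25 against 0.02 with size factors. The members lower by adjusted p numbered 13 with TPM and 7 with size factors. Leaving out any 1 of the P1, P3 or P7 libraries lowered the 12. Without the second P7 or the second P1 library Mrpl42 was no longer called. Over all libraries left out 1 at a time, the median of members less that of all genes ranged from -0.28 to -0.22.

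Between neighbouring time points after birth no member was called. From P1 to P3, limma gave 0 members by adjusted p (0.0143% of all genes were called higher and 0.0% lower), with 0 higher (5.8% of all genes) and 4 lower (5.13%, against 5.48%) at an unadjusted p under 0.05. Both P3 libraries were above both P1 libraries for 6 members (7.69%, against 23.9%) and below them for 27 (34.6%, against 20.1%). The medians were -0.06 for members and 0.02 for all genes. From P3 to P7 it gave 0 members by adjusted p alone (2.07% of all genes higher and 3.06% lower) and 0 called (1.35% higher and 2.2% lower), with 0 higher (7.96% of all genes) and 13 lower (16.7%, against 10.6%) at an unadjusted p under 0.05. Of the 78 members, 68 had a log2 fold change below 0 in that step (87.2%, against 55.3%), and the medians were -0.18 and -0.04. Each step was thus small for single genes, and the postnatal fall was seen over the whole of it.

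**Figure D3:**
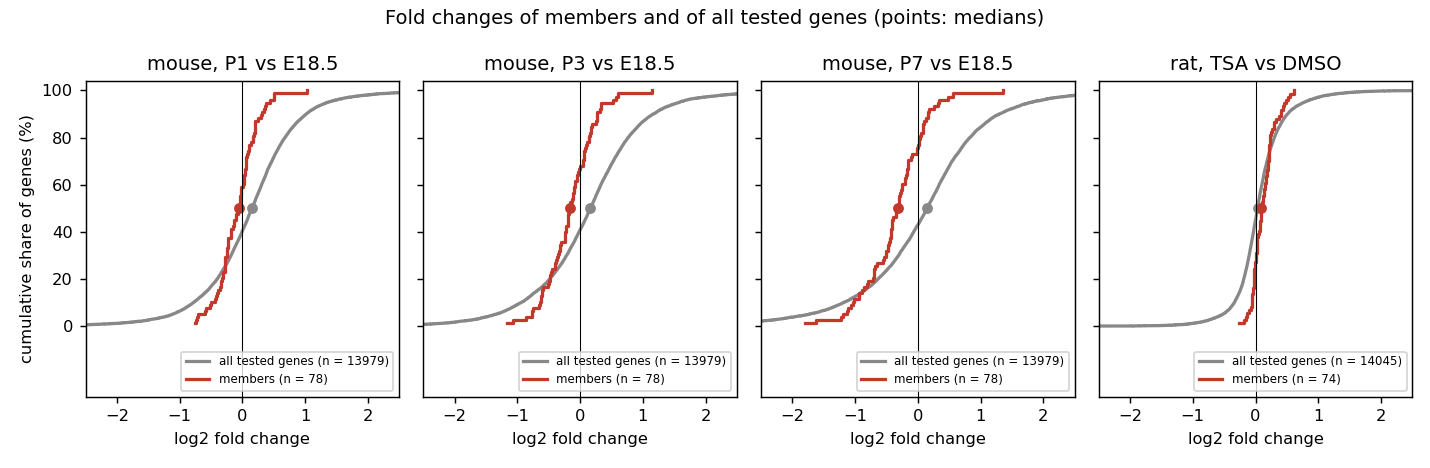
Cumulative share of genes (vertical axis, percent) by log2 fold change (horizontal axis) for members (red) and all tested genes (grey) in 3 mouse comparisons and in rat. Points mark medians. The red curve lies left of the grey one around the middle in the 3 mouse panels, farthest at P7 (-0.32 against 0.15), and close to it in rat (0.09 against 0.03).

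Both subunits moved alike in the median, by -0.31 for the 51 genes of the large subunit and -0.30 for the 26 of the small one from E18.5 to P7, and Mrps36 belongs to neither. Within the small subunit the 10 proteins classed as mitochondria-specific had a median of -0.51, with 7 lower by adjusted p. The 16 classed as having a bacterial homolog had a median of -0.02, with 4 lower and 1 higher. In the large subunit the same division gave -0.35 for 21 genes (8 lower) and -0.30 for 30 genes (13 lower, 2 higher). Of all genes tested, 22.6% were lower and 32.6% higher by adjusted p, and the difference between these groups was not tested. The 3 genes named Mrps18 show how members of one name differ in place. Mrps18a and Mrps18b were classed as mitochondria-specific and Mrps18c as having a bacterial homolog, so these classes split genes of one name. Mrps18a, whose protein sits in the large subunit, was at 39.9 and 51.6 FPKM at E18.5 and 41.0 and 38.4 at P7. Mrps18b was at 39.7 and 42.1, then 43.5 and 39.7, and Mrps18c at 26.8 and 34.8, then 32.3 and 32.3. For all 3 the libraries overlapped, and adjusted p in limma was between 0.315 and 0.881.

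Several other members known for a role or for disease did not pass the test. Mrps30, which also sits in the large subunit despite its name, was at 13.4 and 14.97 FPKM at E18.5 and at 11.5 and 10.3 at P7 (-0.35, adjusted p = 0.0709). Mrpl58, a peptidyl-tRNA hydrolase built into the large subunit, was at 22.2 and 29.0, then 20.2 and 19.3 (-0.35, adjusted p = 0.0828). Mrpl45, which ties the ribosome to the inner membrane, was at 27.1 and 31.8, then 24.7 and 19.9 (-0.39, adjusted p = 0.0548). Among genes whose recessive defects have been linked to cardiomyopathy, Mrpl3 was at 36.5 and 42.5 FPKM, then 34.5 and 29.0 (-0.31, adjusted p = 0.0903), and Mrpl44 at 17.5 and 16.7, then 18.6 and 15.9 (0.01, adjusted p = 0.953). Mrps14 was at 11.1 and 9.83, then 12.1 and 12.0 (0.19, adjusted p = 0.26). Mrps22 did change: it was at 32.8 and 32.6 FPKM at E18.5, between 30.9 and 34.6 at P1 and P3, and at 22.5 and 22.7 at P7 (-0.51, adjusted p = 0.0078). Its 6 earlier libraries stood together and above both P7 libraries.

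Other genes of mitochondrial protein synthesis were taken from lists. The 5 ribosomal proteins under other names had a median of -0.27 from E18.5 to P7, with 0 called (2 lower by adjusted p in limma): Ptcd3 at -0.94 and Chchd1 at -0.73. Of 12 translation factors 3 were called lower and 0 higher (12.3% and 15.4% of all genes), with a median of -0.52. Tufm, the elongation factor that brings tRNA to the ribosome, was at 82.5 and 99.6 FPKM at E18.5 and 37.9 and 35.6 at P7 (-1.28). Gfm1, the elongation factor that moves tRNA and mRNA along, was at 42.0 and 51.2, then 17.6 and 16.2 (-1.40), and Oxa1l, which inserts new proteins into the inner membrane, at 55.2 and 68.5, then 25.1 and 22.7 (-1.33). The fold changes of these 3 lay within the range of the called ribosomal proteins.

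Of 25 assembly factors 2 were called lower, the rRNA methyltransferase Mrm1 (-1.35) and the GTPase Mtg1 (-1.19), with a median of -0.11. The share of all genes called lower, for this and the next lists, was 12.3%. Of 17 mitochondrial aminoacyl-tRNA synthetases 4 were called lower, Ears2 (-1.60), Fars2 (-1.37), Lars2 (-1.18) and Aars2 (-1.06), with a median of -0.42. Rars2 was higher (0.60, adjusted p = 0.011 in limma) but under the 2-fold limit. None of the 4 genes of mitochondrial transcription was called (median -0.28, 1 lower by adjusted p in limma). The 8 nuclear regulators had a median of -0.58, with 3 called lower. Ppargc1a, a coactivator that drives mitochondrial genes, was at 10.3 and 7.91 FPKM at E18.5 and 0.666 and 0.224 at P7 (-2.82). Ppargc1b, its relative, went from 4.75 and 4.65 to 0.736 and 0.213 (-1.97), and the nuclear receptor Esrra from 43.2 and 52.5 to 17.6 and 13.3 (-1.58). Nrf1 rose from 7.22 and 6.03 to 10.3 and 9.54 FPKM (0.52, adjusted p = 0.0251). These 3 falls ran in the same direction as the cardiomyocyte markers. The 13 mRNAs that mitochondrial ribosomes translate could not be followed, since all 37 transcripts of the mitochondrial chromosome were listed at 0 in each library.

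Members lay in the genome close to other genes. A protein-coding gene on the other strand started within 1 kb of the start of 29 members (37.2%, against 16.2% of tested protein-coding genes). Some of these neighbours also serve mitochondria: Mrpl46 and Mrps11 start 30 bases apart, Mrps12 and the synthetase gene Sars2 172 bases apart, Mrpl43 and the helicase gene Twnk 116 bases apart, and Mrpl36 and the complex I gene Ndufs6 51 bases apart. A peak between 2 such starts cannot be assigned to 1 gene.

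Every member had an ATAC-seq peak within 2500 bases of a transcript start in at least 3 of 8 libraries. At E18.5 the libraries listed one for 56 and 51 members (71.8 and 65.4%), and the P1 libraries for 58 and 35 (74.4 and 44.9%). Both P3 libraries listed one for all 78 (100% each), and the P7 libraries for 75 and 77 (96.2 and 98.7%). Over all tested genes the shares were 67.1 and 62.4, 69.2 and 43.0, 91.7 and 87.7, and 86.5 and 85.5%. Members were thus above all genes in each library, by less at E18.5 and P1 than at P3 and P7. Among other tested genes with a mean FPKM in the middle range of the members, 20.1 to 45.7, the shares were higher. They were 79.4 and 74.4, 80.4 and 51.9, 97.7 and 96.3, and 94.8 and 94.4%. The shares of all 78 members were below these at E18.5 and P1 and above them at P3 and P7. Only 38 members lie in that range and their shares by library were not taken, so level is not matched here. Lists were shortest at E18.5 (13149 and 14910 peaks) and longest at P3 (95257 and 52040), with 29281 and 19753 peaks for the P1 pair and 49113 and 35898 for the P7 pair, and the longer P3 and P7 lists held the higher counts. At 13149 top peaks per library the members numbered 56 and 45, 45 and 26, 30 and 42, and 36 and 57, without a steady order over the time course. In percent these were 71.8 and 57.7, 57.7 and 33.3, 38.5 and 53.8, and 46.2 and 73.1, against 67.1 and 58.8, 48.8 and 35.4, 40.8 and 52.6, and 48.7 and 64.0 of all genes. Peaks were called per library.

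In both libraries of a time point, 46 members had a peak at E18.5 (59.0%, against 56.7% of all genes), 34 at P1 (43.6%, against 41.3%), 78 at P3 (100%, against 87.5%) and 74 at P7 (94.9%, against 83.2%). At equal list length these were 42, 25, 27 and 33 members (54.1, 31.5, 37.2 and 45.2% of all genes). A peak in all 8 libraries was present for 28 members (35.9%, against 36.6%) and in none for 0 (7.22% of all genes). Level bears on this share: among other genes with a mean FPKM between the quartiles of the members, 20.1 to 45.7, 45.2% had a peak in all 8 libraries, and 42.1% of the 38 members in that range did. The members with the fewest peaks were Mrpl13 and Mrpl3, each with 3. Mrpl3 had peaks in both P3 libraries and the first P7 library, with fold enrichments of 5.31, 6.80 and 3.56.

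Peaks lay on the starts. Of 508 strongest peaks of members over the 8 libraries, 86.8% covered a start and 88.0% had their summit within 250 bases of one, with a median distance of 59.5 bases. Their median fold enrichment over background was close to that of all genes with a promoter peak in every library, for example 6.52 against 6.62 in the first E18.5 library and 5.64 against 5.87 in the second P7 library. Mrpl42, whose RNA fell the most, had a peak in the first E18.5 library (5.79), in both P3 libraries (8.15 and 9.77) and in both P7 libraries (6.86 and 5.38), so its peak was listed at P7. Mrpl17 had one in all 8, at 11.8 and 9.95 at E18.5, then 7.19 and 7.65 (P1), 9.11 and 12.4 (P3) and 7.69 and 8.93 (P7). The E18.5 enrichments of this gene, whose RNA was lowest then, were above those at P7. Enrichments of separately called lists are not scaled to each other, and no test was made of them.

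Between E18.5 and P7, 15 members went from a peak in neither library to one in both (19.2%, against 12.1% of all genes), and 0 went the other way (0.0286%). They were Mrpl1, Mrpl11, Mrpl16, Mrpl19, Mrpl20, Mrpl22, Mrpl24, Mrpl28, Mrpl35, Mrpl46, Mrps5, Mrps10, Mrps11, Mrps25 and Mrps34. The set holds Mrpl16, called lower at P7, beside Mrpl20, which rose. At equal list length 2 members gained a peak (2.56%, against 1.53%) and 3 lost one (3.85%, against 3.29%).

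**Figure D4:**
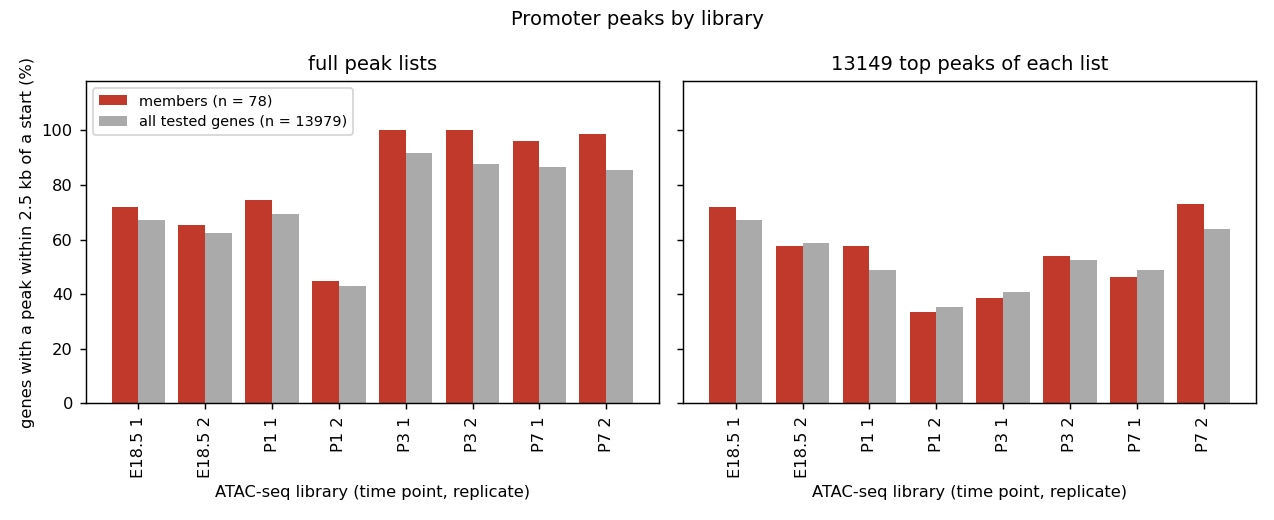
Share of genes (vertical axis, percent) with an ATAC-seq peak within 2500 bases of a start in each of 8 libraries (horizontal axis), for the 78 members (red) and all 13979 tested genes (grey). The left panel uses full lists and the right one the 13149 top peaks of each. On the left, members reach 100% at P3, and on the right neither group rises steadily over the time course.

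The RefSeq windows held 69 of the 78 members, in 75 windows of 300 bases. Exact matches on either strand to the ETS letters were in 34.7% of member windows, against 8.86% of all 32851 windows and 16.9% of the 12889 windows of tested genes. The YY1 letters were in 16.0%, against 2.75% and 4.26%, and those of NRF1 in 9.33%, against 1.87% and 3.72%. The 7 members with the NRF1 letters were Mrpl9, Mrpl10, Mrpl17, Mrpl22, Mrpl32, Mrpl39 and Mrps18b. Of general promoter motifs, the SP1 letters (GGGCGG) were in 52.0%, against 35.7% and 62.1%, the CCAAT letters in 40.0%, against 37.4% and 37.6%, and TATAAA in 6.67%, against 13.6% and 7.54%. In member windows, matches of different motifs overlapped in 2 places, and 3 windows held both an ETS and a YY1 match. The median log2 fold change from E18.5 to P7 was 0.02 for the 7 members with an NRF1 match and -0.35 for the 62 without, -0.20 for the 26 with an ETS match and -0.35 for the 43 without, and -0.31 both for the 12 with a YY1 match and for the 57 without. These medians were not tested against each other. A match is a description of the letters and not a bound site.

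The comparison of TSA with DMSO asks how transcripts of the cultured rat cardiomyocyte preparations differed with histone deacetylase inhibition. Few members differed. By adjusted p and the 2-fold limit in limma, 0 of 74 members were called higher and 0 lower (1.75% and 0.306% of all genes). By adjusted p alone 1 was higher (1.35%, against 3.06%), and 0 were lower (0.57% of all genes). At an unadjusted p under 0.05, 11 were higher (14.9%, against 13.3%) and 0 lower (6.84% of all genes). The median member changed by 0.09 and the median gene by 0.03 on the log2 scale. The difference of these medians was 0.05, and it turned to -0.03 without TSA replicate 3 and rose to 0.15 without TSA replicate 2. All 3 TSA libraries were above all 3 DMSO libraries for 16 members (21.6%, against 17.3%) and below them for 1, Mrpl51 (1.35%, against 10.1%).

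The member past the threshold was Mrps9, the small-subunit protein that was also among those lower at P7 in mouse. It was at 31.6, 28.9 and 27.6 FPKM with DMSO and at 42.7, 45.0 and 42.0 with TSA. The groups did not overlap, with a log2 fold change of 0.54 ± 0.09 (SE, n = 3 per group, adjusted p = 0.0326 in limma, exact permutation p = 0.1, the smallest that 3 against 3 allow). Its adjusted p was between 0.0107 and 0.16 over the alternatives, and was 0.0648 with TPM, 0.051 with a filter at a mean of 5 FPKM and 0.0964 to 0.16 without any one of the first or second libraries of either group. Mrps10 had the largest difference, from 6.74, 6.86 and 7.28 FPKM to 9.52, 9.12 and 16.1 (0.62 ± 0.21, adjusted p = 0.167 in limma). TSA replicate 3 was far above the other two. Mrpl28 went from 49.4, 45.2 and 48.4 to 63.5, 60.7 and 82.9 FPKM (0.51, adjusted p = 0.0925), again with TSA replicate 3 highest. Mrpl36 (0.49, adjusted p = 0.164) and Mrps35 (0.45, adjusted p = 0.107) came next, and none of these 4 passed the test.

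The members with the lowest fold changes were Mrpl47 (9.73, 8.43 and 7.85 FPKM with DMSO, 6.34, 6.62 and 8.15 with TSA, log2 fold change -0.27), Mrpl54 (-0.18), Mrpl51 (-0.15), Mrpl1 (-0.14) and Mrpl49 (-0.11), and their adjusted p in limma was between 0.349 and 0.761. Of members called in mouse, Mrpl42 was at 0.17 (adjusted p = 0.556), Mrpl12 at -0.02 (adjusted p = 0.973) and Mrpl17 at -0.04 (adjusted p = 0.876) here, while Mrps9 and Mrps35, both called lower in mouse, were among the 5 highest fold changes given above. Mrpl12 was at 70.0, 66.6 and 65.2 FPKM with DMSO and 60.3, 51.4 and 94.3 with TSA, so that TSA replicate 3 stood above and the other two below all DMSO libraries. In none of the lists of other genes for mitochondrial protein synthesis was a gene called with TSA.

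Replicate 3 of each rat group was highest in markers of cardiomyocytes and of smooth muscle and pericytes, and lowest in those of macrophages. In fibroblast markers replicate 3 stood apart with TSA only. Cardiomyocyte markers (9 genes) summed to 6745, 6958 and 12110 FPKM with DMSO and 7939, 7154 and 18240 with TSA, and fibroblast markers (7 genes) to 6383, 6930 and 6692 and to 5965, 5658 and 3565. Smooth muscle and pericyte markers were at 918, 836 and 2157, then 596, 590 and 1382, and macrophage markers at 973, 991 and 472, then 515, 439 and 385. Without both replicate 3 libraries, a choice made after seeing the data, the median member changed by -0.02 against 0.03 over all genes, and 7 members were higher (9.46%, against 12.1% of all genes in that fit) and 1 lower (1.35%, against 7.14%) by adjusted p in limma, with 0 called. Those higher were Mrps9 (0.52), Mrpl36 (0.52), Mrps10 (0.40), Mrpl28 (0.39), Mrps27 (0.34), Mrpl43 (0.32) and Mrpl13 (0.29), and the one lower was Mrpl47 (-0.43).

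**Figure D5:**
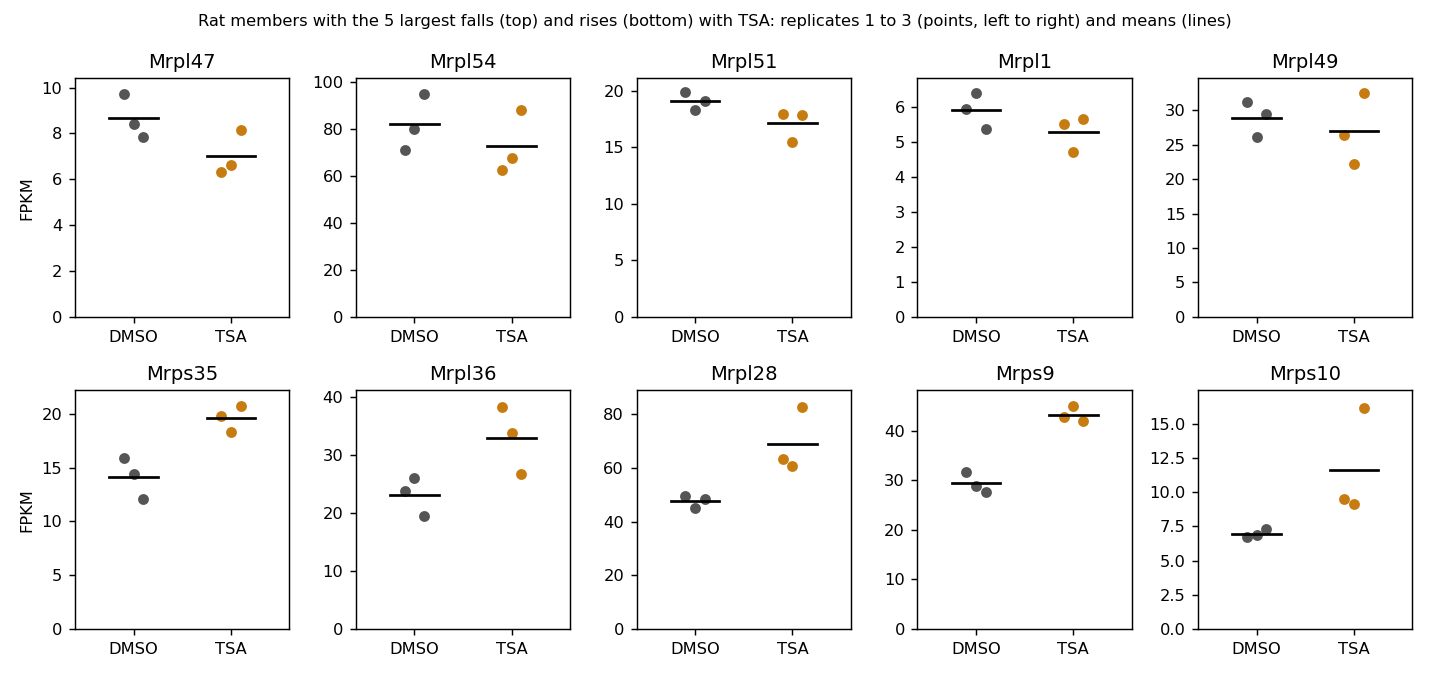
FPKM (vertical axis, from 0) of the 5 rat members with the largest falls (top) and the 5 with the largest rises (bottom) with DMSO and with TSA. Points are replicates 1 to 3 from left to right and lines their means. Only the bottom panels and Mrpl51 show groups that do not overlap, and the TSA replicate 3 point of Mrps10 and of Mrpl28 lies above the rest.

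Rat levels were of the same order as those in mouse but ranked otherwise. The highest means were those of Mrpl33 (135 FPKM), Mrpl17 (88.3) and Mrpl54 (77.6), and the lowest those of Mrpl1 (5.61), Mrpl47 (7.85) and Mrps10 (9.28), so Mrpl47 was among the lowest in both species. Mrpl17, at 9.18 FPKM in the mouse mean, was second highest in rat. Over the 74 genes found in both species, Spearman's rho between the mean of the mouse P1 libraries and that of the rat DMSO libraries was 0.466, a description across genes that differ in annotation between the species. A rat gene listed in lower case as mrpl11 lay outside the naming rule and was at 37.7, 33.5 and 25.1 FPKM with DMSO and 41.0, 38.9 and 46.5 with TSA (0.40, adjusted p = 0.232 in limma).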

How the data were processed

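RNA-seq and ATAC-seq tables were analysed as deposited. For RNA-seq, the authors aligned reads with HISAT2 2.1.0 to mm10 or rn6 and had StringTie 1.3.5 estimate FPKM, TPM and coverage per annotated transcript. Those deposited FPKM values were summed per gene, and because the tables hold no read counts, the count test of the study was replaced by limma 3.58.1 (R 4.3.3) on log2(FPKM + 1) with an intensity trend and Benjamini-Hochberg adjustment. The fit used every gene with at least 1 FPKM in 2 libraries. A fold change on this scale understates the change of genes of low level. Depth was estimated from coverage with reads of 150 bases. For ATAC-seq, the authors trimmed reads with cutadapt, aligned them with Bowtie2, removed duplicates with Picard and called peaks in each library with MACS2. The deposited columns per peak are a score, the fold enrichment at the summit, and −log10 p and −log10 q, of which the enrichment and the order of the score were used here. A promoter peak overlapped the 2500 bases on either side of an annotated transcript start by at least 1 base, and each transcript start of a gene was used. The limma step was tested on simulated data. Deviations of rat libraries with the same replicate number had correlations of 0.192, 0.175 and 0.350. Those of DMSO replicate 2 with TSA replicate 1 (0.183) and of DMSO replicate 1 with TSA replicate 2 (0.114) were also above 0. The values thus set replicate 3 apart and do not show which libraries of replicates 1 and 2 belong together.

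The members and gene lists were chosen with earlier results of these data known. Members named with values were those called from E18.5 to P7 or with TSA, the 5 with the largest change where fewer were called, the 3 highest and 3 lowest in level, members known for a role, and members with the fewest or with changed promoter peaks. Promoters were printed for the most abundant member, those with the largest change in mouse and rat, and 1 with the fewest peaks, and Mrpl17 was added. Further members, in the comparisons at P1, at P3, from P1 to P7 and without replicate 3, were named after their values were seen. Alternatives were the pseudocount, the filter on level, TPM, size factors, a replicate block, fits restricted to the 2 time points of a comparison, peak windows and list lengths, and leaving out each library.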

Additional observations from a re-analysis of the deposited data

How the results depend on the processing

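With 2 or 3 libraries per group, single libraries moved the counts. Leaving out 1 library at a time, the members called lower from E18.5 to P7 ranged from 5 to 12, at P3 from 1 to 3 and from P1 to P7 from 0 to 3, and those called higher at P1 from 0 to 1. The median of members less that of all genes ranged from -0.61 to -0.40 at P7, from -0.50 to -0.23 at P3 and from -0.35 to -0.16 at P1, and members with a peak in the single P1 list left numbered 35 or 58. With TPM, 3 members were called lower at P7 and 0 at P3, and Mrpl17 was not called higher at P1 with size factors, which left 0. A pseudocount of 0.1 gave 2 members called lower from P1 to P7. Without a filter, which added genes of low level, the differences in median were -0.0533 at P1, -0.1625 at P3 and -0.3128 at P7. In the upper 50% of each list, 26 members had a peak in both E18.5 libraries (33.3%, against 32.9% of all genes). In both P1 libraries 20 did (25.6%, against 28.2%). With equal list lengths 27 did at P3 (34.6%, against 37.2%) and 33 at P7 (42.3%, against 45.2%). These shares were near those of all genes. The cause of these shifts was not tested. In rat, the difference in median ranged from -0.0329 (without TSA replicate 3) to 0.154 over the libraries left out, and was -0.046 without both replicate 3 libraries, so its sign turned. With TPM the median of members itself turned to 0.18 at P1 and 0.08 at P3, and was -0.07 at P7. Of the alternatives for these counts and medians, 306 moved them by less than the limit set (1.5 times a count, or 1 SD between libraries for a median) and 23 by more. Of those for single genes, 692 left the gene on its side of the call, 15 ended a call, 7 made one, and 1 turned the sign of a gene that was not called (Mrpl49 in rat).

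Deviations of mouse libraries with the same number had correlations from -0.0964 to 0.171. With 2 libraries per time point the other pairing gives the same values with the opposite sign. The check therefore cannot show which libraries belong together. With the number as a block, 9 members were called lower and 1 higher at P7, and by adjusted p 32 were lower at P7 and 8 from P1 to P7. For the rat libraries the block left 0 called and 1, Mrps9, higher by adjusted p, and it changed no other call.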

Other observations

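The 4 mouse pseudogenes that the naming rule left out were low in every library. Mrpl23-ps1 was between 0.635 and 2.67 FPKM, Mrps36-ps2 between 0.0900 and 1.09, Mrps36-ps1 between 0.0969 and 0.694, and Mrpl48-ps between 0.0219 and 0.164. Their parent genes were all higher in the mean, the lowest being Mrpl48.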
